A study of Homo sapiens with 52 samples.

Results

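The myogenic basic helix-loop-helix (bHLH) factors MYOD1, MYOG, MYF5 and MYF6 and their dimer partners, the E proteins TCF3, TCF4 and TCF12, were followed by RNA-seq in fusion-positive rhabdomyosarcoma (FP-RMS) cells exposed to small molecules. The 7 genes were taken by name from 27043 genes listed in each of 52 samples, and each name occurred once. Of the 7, 5 passed the filter for testing (at least 1 TPM in at least 2 of the 52 samples), as did 16359 genes in all. TPM, a transcript share corrected for gene length and library size, lets levels be set beside each other between genes.

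FP-RMS is a childhood soft-tissue tumour of cells halted on the way to skeletal muscle, and the line used here carries the fusion gene PAX3-FOXO1. A screen exposed the cells for 6 h to 20 compounds at a high and a low dose, with 4 DMSO (solvent) controls, 2 at 0.2% and 2 at 0.1%. The doses were 10 and 1 µM for 17 compounds and 5 and 0.5 µM for LAQ824, Cpd50 and GSKJ4, with 1 sample at each dose. Separately, the histone deacetylase (HDAC) inhibitor N1302 was given at 1 µM for 6 h, and entinostat, labelled as an inhibitor of HDAC1/2/3, at 1 µM for 1, 6 and 24 h, each with 1 DMSO sample per time.

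By the targets in the labels, 7 compounds act on the acetylation axis, that is on HDACs (LAQ824, WT161, Merck60, OJI-1 and MC 1568), bromodomains (Bromosporin) or the CREBBP/EP300 bromodomain (SGC-CBP30). A further 11 act on histone methylation (UNC0638, PFI-2, SGC0946, EZ-005, UNC1999, GSKLSD1, LSD-519, LSD-690, Cpd50, GSKJ4 and UNC-1215). PFI-3, labelled SMARCA4, and the MEK1/2 inhibitor Trametinib were counted on neither axis. The paper names remodelers of the BAF complex among proteins with acetylation-reader domains. PFI-3 could thus also be placed on the acetylation axis. The titles of screen samples give the line as RH41 and a separate cell line field gives RH4, so screen levels were not tested against those of the other experiments. Nothing in the labels says that the samples came from separate cultures, and p-values measure the spread between these samples, which may be technical. In the fits of compounds against DMSO this spread also includes the difference between the high and the low dose.

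Myogenic factors bind DNA as heterodimers with an E protein, at the short E-box motif CANNTG, and switch on muscle genes. MYOD1 and MYF5 set the muscle lineage, MYOG drives the differentiation of myoblasts and MYF6 acts in maturing fibres. E proteins are made in many tissues, and the ID proteins hold them in dimers that do not bind DNA. The comparisons asked whether transcripts of the muscle-specific factors and of their broadly expressed partners change alike when histone acetylation or methylation is inhibited.

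The genes lie on 6 chromosomes of the human genome build hg19. The tables place MYOD1 at chr11:17741110-17743678 and MYOG at chr1:203052257-203055166. MYF6 (chr12:81101408-81103256) and MYF5 (chr12:81110708-81113447) lie close together. The E proteins are longer genes, TCF3 at chr19:1609289-1652328, TCF4 at chr18:52889562-53303224 and TCF12 at chr15:57210288-57583459. The values are for whole genes, and isoforms of the E proteins, such as the TCF3 products E12 and E47, were not separated.

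MYOG and TCF12 are a myogenic factor and a partner whose levels fell together under LAQ824 and Bromosporin. Because myogenic factors bind E-boxes as dimers with E proteins, the 250 bases before the start of each canonical transcript are given. They were read from GRCh37 (the assembly of hg19), 5′ to 3′ on the strand of the gene, with every E-box (CANNTG, which reads the same on both strands) in capitals. The windows are chr1:203055141-203055390 on the minus strand and chr15:57210592-57210841 on the plus strand.
MYOG: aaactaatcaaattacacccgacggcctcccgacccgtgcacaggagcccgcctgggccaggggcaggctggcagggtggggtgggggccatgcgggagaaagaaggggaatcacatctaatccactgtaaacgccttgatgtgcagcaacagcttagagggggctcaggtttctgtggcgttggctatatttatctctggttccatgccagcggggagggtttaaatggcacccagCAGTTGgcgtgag
TCF12: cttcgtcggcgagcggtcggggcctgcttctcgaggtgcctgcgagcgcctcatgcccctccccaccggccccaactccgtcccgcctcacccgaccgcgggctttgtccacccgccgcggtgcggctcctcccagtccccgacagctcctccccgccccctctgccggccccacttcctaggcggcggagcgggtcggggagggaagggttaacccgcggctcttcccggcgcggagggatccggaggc

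The MYOG window held 1 E-box, CAGTTG, which ends 7 bases before the start. The MYF5 window held 1, CAAATG, with 216 bases between it and the start. The windows of MYF6, TCF12, TCF3 and TCF4 held none. The canonical starts come from a separate annotation and differ from the ends of the gene spans given above. The windows of TCF12 and TCF4 lie inside those spans. Parts of the MYOG and MYF6 windows do so too, with the MYOG E-box among them. Bases before other starts of these genes were not read, nor were distant elements, where the paper also places MYOD1 and MYOG. Among 20964 windows of the same length from genes of the tables, 57.8% held a CANNTG. The presence or absence of an E-box in these windows is a description of the bases, and binding was not measured by these data.

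In the DMSO controls of the screen, 2 myogenic factors and TCF12 were highly expressed. MYOD1 was at 647 and 641 TPM in 0.2% DMSO and at 640 and 648 TPM in 0.1% DMSO. MYOG was at 579, 572, 587 and 575 TPM in the same order. All 4 MYOD1 values lay above all 4 MYOG values.

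TCF12 was the most abundant E protein transcript, at 335, 345, 343 and 365 TPM, ahead of TCF3 at 119, 119, 135 and 136 TPM and TCF4 at 25.7, 27.4, 26.7 and 27.5 TPM. The order MYOD1, MYOG, TCF12, TCF3, TCF4 held without overlap between neighbours in the 4 DMSO columns. TCF12 made up 68.0 to 70.2% of the summed E protein TPM, and TCF4 5.20 to 5.58%.

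MYF5 and MYF6 were close to the limit of detection. MYF5 had 0 reads in 20 of the 52 samples and at most 12 reads in any sample, with a highest value of 1.06 TPM. MYF6 had 0 reads in 13 samples, at most 12 reads, and a highest value of 1.22 TPM. In the samples with 0 reads, a count of 0 allowed, at 3 reads, a level of up to 0.153 to 0.870 TPM for MYF5 and 0.214 to 0.823 TPM for MYF6, depending on the library. Neither gene was tested, and differences between samples are not described for them at these counts. These limits cover counting error only.

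In the DMSO samples titled RH4, the order of the myogenic factors was the other way round. MYOD1 was at 249 TPM in the DMSO sample of N1302 and at 346, 405 and 367 TPM in those of entinostat at 1, 6 and 24 h. MYOG was at 391, 632, 633 and 546 TPM in these samples, above MYOD1 in each. TCF12 ran from 199 to 296 TPM, below the range of the screen's DMSO, TCF3 from 46.4 to 112 TPM, and TCF4 from 28.4 to 41.5 TPM, above that range. Line, experiment and time of sequencing cannot be told apart in this difference, which was not tested.

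Of 8 transcripts listed as markers of FP-RMS, MYOD1 and MYOG among them, some were high in every sample and some went low. DES, which encodes the muscle filament desmin, ran from 188 to 768 TPM over the 52 samples, and FGFR4 from 389 to 1339 TPM. PIPOX ran from 5.72 to 232 TPM, ALK from 2.76 to 47.4 TPM, TFAP2B from 0.468 to 110.5 TPM and NOS1 from 0.347 to 59.0 TPM, and their lowest DMSO values were 23.4, 7.37, 10.8 and 1.304 TPM. Of 6 genes chosen to mark other cell types, PTPRC, EPCAM, PECAM1 and KRT5 stayed at or below 0.83 TPM, ALB reached 2.99 TPM, and COL1A1 ran from 6.17 to 436 TPM. Depth was recovered from the steps between TPM values, and the smallest library held 5737939 reads and the largest 41415071. The 28 samples of flow cell C5JW5ACXX, 14 compounds without a DMSO column, had a median of 10571890 reads. Among 10378 genes that reached 100 reads in all DMSO columns, the variance between DMSO concentrations was 2.08 times counting noise, that between replicate numbers (which are also flow cells) 1.90 times, and the remainder 0.995 times. The 2 columns of a concentration were therefore counted as 1 sample, which leaves n = 2 for DMSO.

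**Figure D1:**
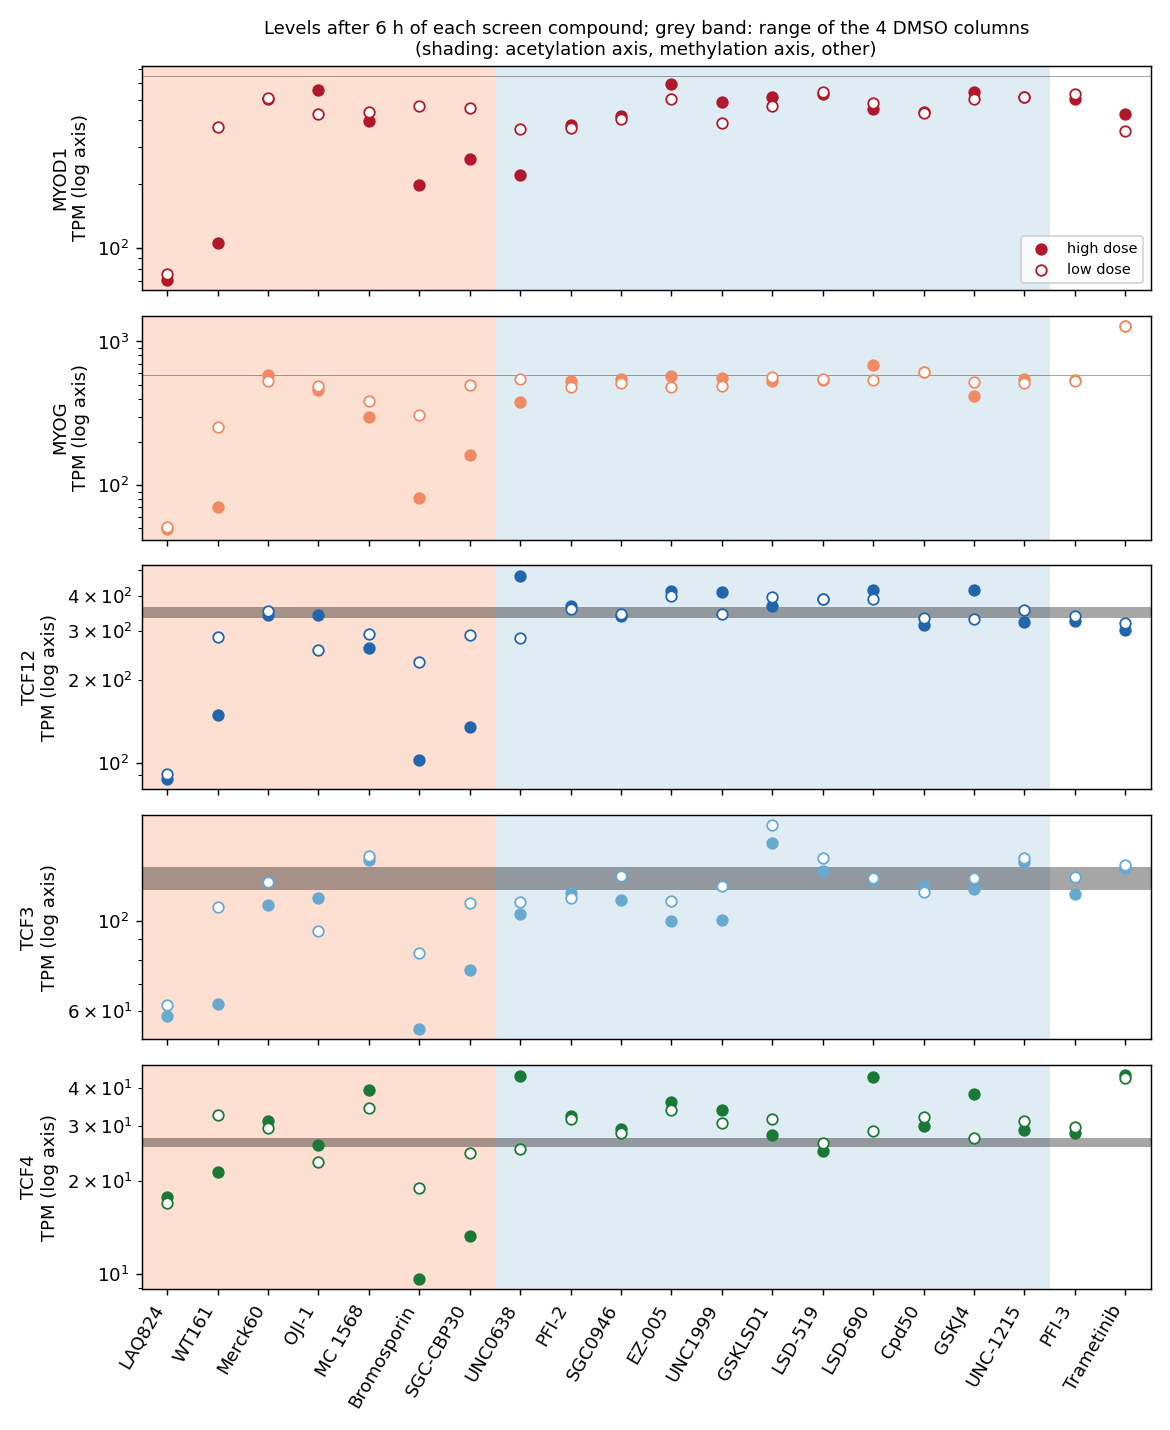
TPM (log axis) of MYOD1, MYOG, TCF12, TCF3 and TCF4 after 6 h of each screen compound, with filled points for the high and open points for the low dose, 1 sample each, and a grey band from the lowest to the highest of the 4 DMSO columns. MYOD1 lies below the DMSO band in all 40 treated samples, whereas TCF4 lies above it in 28 of them.

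Each compound was then set against DMSO, with its high and low doses as its 2 samples and all screen samples in one limma fit of log2(TPM + 1). Of 100 pairs of a tested gene and a compound, 13 passed a Benjamini-Hochberg adjusted p below 0.05, all of them lower than DMSO. They were 7 pairs of the 2 tested myogenic factors and 6 pairs of the 3 E proteins, under LAQ824, WT161, Bromosporin and UNC0638. Of all tested genes, 24.6%, 14.3%, 23.4% and 9.76% were called lower under these compounds, in the same order. MYOD1 fell under 4 compounds, MYOG under 3, TCF3 under 3, TCF12 under 2 and TCF4 under 1. In bulk RNA, less transcript per cell and fewer expressing cells cannot be told apart.

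LAQ824, labelled as an HDAC inhibitor, gave the lowest levels of MYOD1, MYOG and TCF12 in the screen, and the dose made little difference to them. MYOD1 was at 71.0 TPM at 5 µM and 75.1 TPM at 0.5 µM, against 640 to 648 TPM in DMSO. MYOG was at 49.2 and 51.0 TPM, against 572 to 587 TPM. TCF12 was at 87.2 and 91.4 TPM, against 335 to 365 TPM. None of these values came near the range of the controls.

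On the log2 scale the changes that passed were -3.50 ± 0.46 for MYOG (SE; limma adjusted p = 1.17e-06), -3.12 ± 0.36 for MYOD1 (adjusted p = 2.54e-07), -1.95 ± 0.30 for TCF12 (adjusted p = 1.03e-05) and -1.07 ± 0.19 for TCF3 (adjusted p = 5.60e-05). As ratios to DMSO these are 0.0882, 0.115, 0.260 and 0.477. TCF4, at 17.7 and 16.9 TPM, differed by -0.60 ± 0.26 (adjusted p = 0.0567). It passed the threshold, among other alternatives, when the first of the 0.2% DMSO columns was left out (adjusted p = 0.0484). With 4 of 5 genes lower, the share is to be read against 24.6% of all tested genes called lower under LAQ824. MYOD1 and MYOG together changed by a mean of -3.31, and the 3 E proteins by a mean of -1.21.

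WT161, labelled HDAC6, had MYOD1 and MYOG far below the controls at 10 µM and nearer to them at 1 µM. MYOD1 was at 106 TPM at 10 µM and 372 TPM at 1 µM, and MYOG at 70.8 and 254 TPM. TCF3 was at 62.2 and 108 TPM. The changes that passed were -2.10 ± 0.46 for MYOG (SE; limma adjusted p = 0.00123), -1.69 ± 0.36 for MYOD1 (adjusted p = 0.00105) and -0.62 ± 0.19 for TCF3 (adjusted p = 0.0148). The call of TCF3 was lost at the low dose alone (-0.23, adjusted p = 0.135) and against the other compounds of the flow cell (-0.43, adjusted p = 0.0569). With only the samples of WT161 and DMSO fitted, all 3 calls were lost, at adjusted p-values of 0.1595 for MYOG, 0.207 for MYOD1 and 0.269 for TCF3.

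TCF12 under WT161, at 149 and 284 TPM, differed by -0.75 ± 0.30 with an adjusted p of 0.0603, and TCF4, at 21.4 and 32.7 TPM, by -0.02 ± 0.26. The high-dose value of TCF4 lay below the DMSO range and the low-dose value above it. The share of 3 of 5 genes lower stands beside 14.3% of all tested genes.

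Bromosporin, an inhibitor of bromodomains, was the compound under which all 5 tested genes fell. MYOG was at 81.7 TPM at 10 µM and 307 TPM at 1 µM, and MYOD1 at 198 and 466 TPM. TCF12 was at 103 and 231 TPM. Every value lay below the DMSO range, and the high dose gave the lower value for each gene.

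The changes were -1.86 ± 0.46 for MYOG (SE; limma adjusted p = 0.00320), -1.17 ± 0.30 for TCF12 (adjusted p = 0.00460) and -1.08 ± 0.36 for MYOD1 (adjusted p = 0.0224). TCF4, at 9.62 and 18.9 TPM, changed by -0.94 ± 0.26 (adjusted p = 0.00769), and TCF3, at 54.0 and 83.5 TPM, by -0.91 ± 0.19 (adjusted p = 0.000956). The lowest TCF3 and TCF4 levels of the screen were those of Bromosporin at 10 µM. The 5 of 5 genes lower stand beside 23.4% of all tested genes. The mean change was -1.47 for MYOD1 and MYOG and -1.004 for the E proteins, a narrower gap than under LAQ824, though the difference between the gaps was not tested. Against the other compounds of its flow cell in place of DMSO, MYOD1 under Bromosporin differed by -0.43 (adjusted p = 0.316), and its call was lost. With only the samples of Bromosporin and DMSO fitted, all 5 calls were lost, at adjusted p-values from 0.193 to 0.255.

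SGC-CBP30, an inhibitor of the CREBBP/EP300 bromodomain, gave values of the same genes below the DMSO range. They did not pass the threshold in the fit of both doses. At 10 µM, MYOD1 was at 263 TPM, MYOG at 163 TPM, TCF12 at 135 TPM and TCF4 at 13.2 TPM. At 1 µM they were at 459, 498, 289 and 24.7 TPM. Over both doses MYOG differed by -1.02 ± 0.46 (SE; limma adjusted p = 0.250), MYOD1 by -0.89 ± 0.36 (adjusted p = 0.192) and TCF12 by -0.81 ± 0.30 (adjusted p = 0.152). Of the 5 genes 0 passed in this fit, with 3.41% of all tested genes called. At an unadjusted p below 0.05, 4 of the 5 passed, as did 16.9% of all tested genes. TCF12 passed with the 4 DMSO columns as separate samples (adjusted p = 0.0409) and with voom weights on whole reads (adjusted p = 0.0442). The shares of all tested genes in those 2 fits are not given here. The 10 µM sample alone differed from DMSO by -1.82 for MYOG, -1.29 for MYOD1, -1.36 for TCF12, -0.97 for TCF4 and -0.74 for TCF3. At 1 µM the differences were -0.21, -0.49, -0.26, -0.12 and -0.20 in the same order. With 1 sample a dose these are effect sizes, and the fit of both doses counts the gap between them as spread.

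UNC0638, which targets the histone methyltransferase labelled KMT1C, was the methylation-axis compound with a call in the fit of all screen samples. The E proteins differed among themselves under it. MYOD1 was at 221 TPM at 10 µM and 366 TPM at 1 µM, a change of -1.18 ± 0.36 (SE; limma adjusted p = 0.0363). TCF12 was at 476 TPM at 10 µM, the highest level in the series, and at 284 TPM at 1 µM. TCF4 was at 43.5 and 25.3 TPM. The high dose thus gave values above the DMSO range for TCF12 and TCF4, and the low dose values below it. TCF3, at 104 and 112 TPM, was below its range of 119 to 136 TPM at both doses, with a difference of -0.23 ± 0.19 (limma adjusted p = 0.437).

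MYOG under UNC0638 was at 382 and 544 TPM and differed by -0.34 ± 0.46 (limma adjusted p = 0.665). The 1 gene of 5 that was lower stands beside 9.76% of all tested genes called lower. The call of MYOD1 was lost without the filter on low values (adjusted p = 0.0621), against the other compounds of the flow cell (-0.53, adjusted p = 0.269) and with only the samples of UNC0638 and DMSO fitted (adjusted p = 0.556).

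Trametinib was the compound with the highest MYOG. MYOG was at 1287 TPM at 10 µM and 1282 TPM at 1 µM, against 572 to 587 TPM in DMSO, a ratio of 2.22. TCF4 was at 43.8 and 42.8 TPM, above its DMSO range at both doses. MYOD1 was at 429 and 358 TPM, below it. The difference of MYOG was 1.15 ± 0.46 (SE; limma adjusted p = 0.250) and that of TCF4 0.67 ± 0.26 (adjusted p = 0.235), so 0 of 5 genes passed, with 2.70% of all tested genes called and 2 of the 5 at an unadjusted p below 0.05, as were 12.4% of all tested genes. MYOG passed against the other compounds of its flow cell (1.64 ± 0.41, adjusted p = 0.0326), with voom weights (1.11, adjusted p = 0.0479) and with only the Trametinib and DMSO samples in the fit (adjusted p = 0.0212). In that last fit MYOD1 (-0.72, adjusted p = 0.0454) and TCF4 (0.67, adjusted p = 0.0212) passed too. Shares of all tested genes in these alternative fits are not given here.

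The other 14 compounds gave 0 calls among the 5 genes in this fit. The shares of all tested genes called under them were 22.5% for MC 1568, 0.116% for Merck60, 0.171% for OJI-1 and 0.0428% for PFI-3. On the methylation axis they were 5.7% for Cpd50, 3.51% for GSKLSD1, 1.41% for LSD-690, 0.587% for LSD-519, 0.465% for PFI-2, 0.183% for SGC0946, 0.0734% for EZ-005, 0.0672% for UNC1999, 0.0489% for UNC-1215 and 0.0122% for GSKJ4. At an unadjusted p below 0.05 they gave 1, MYOD1 under PFI-2. MC 1568, labelled HDAC4/5, had MYOD1 at 399 and 438 TPM and MYOG at 297 and 384 TPM, all below the DMSO range, and TCF4 at 39.2 and 34.4 TPM, above it. With voom weights MYOD1 under MC 1568 passed (-0.73, limma adjusted p = 0.0449), and with only its own samples and those of DMSO MYOG (-0.77, adjusted p = 0.0357), TCF12 (-0.33, adjusted p = 0.0483) and TCF4 (0.44, adjusted p = 0.0370) passed as well. In limma fits of own samples and DMSO, MYOD1 also passed under Cpd50 (-0.56, adjusted p = 0.00741) and LSD-519 (-0.26, adjusted p = 0.0427). For these alternative fits the shares of all tested genes are not given. Passes in them are therefore not read as particular to the 5 genes. Merck60, labelled HDAC1/2, and OJI-1, labelled HDAC8, kept MYOG between 462 and 581 TPM and MYOD1 between 427 and 558 TPM.

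**Figure D2:**
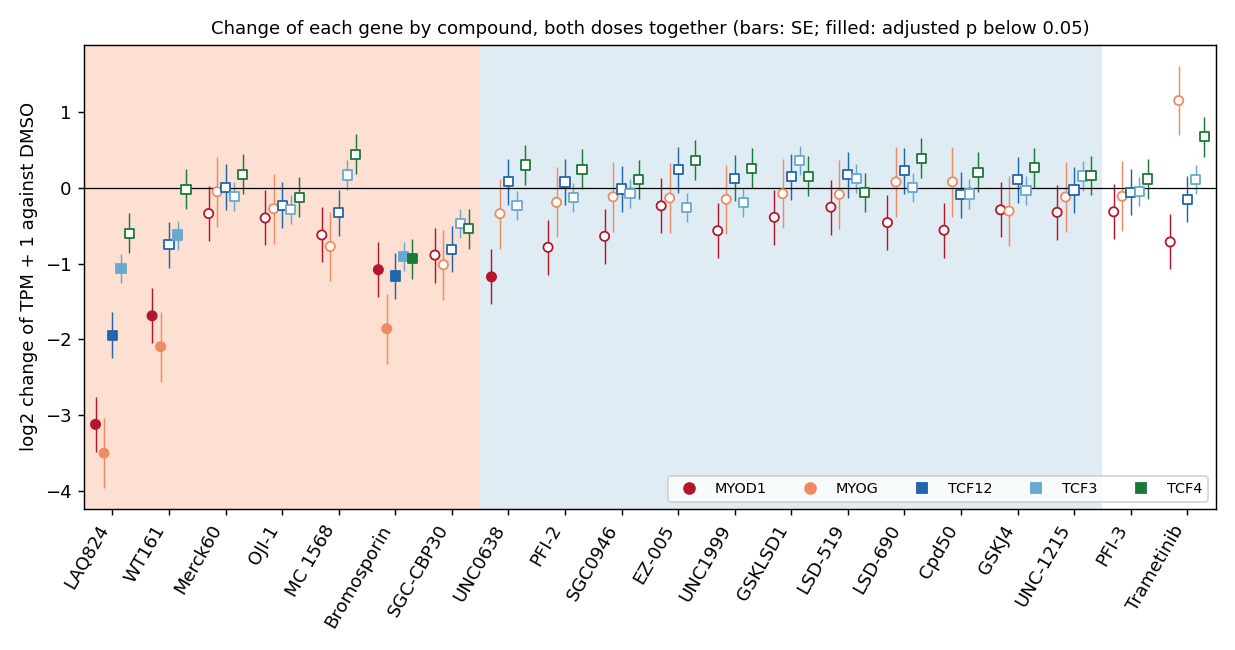
Change in log2(TPM + 1) against DMSO for each compound, high and low dose together, with bars for the SE, circles for MYOD1 and MYOG, squares for the E proteins, and filled symbols for an adjusted p below 0.05. Under LAQ824 the circles lie at -3.12 and -3.50 and the squares between -0.60 and -1.95, and under Bromosporin all 5 symbols are filled.

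MYOD1 was lower than every DMSO column in all 40 treated samples, which held for 0.153% of the tested genes (25 genes). Its log2 change was negative under 20 of 20 compounds, with a median of -0.56 and a range from -3.12 to -0.24. Of the treated samples, 8 shared a flow cell with DMSO columns, and MYOD1 was below both DMSO columns of its own flow cell in 8 of 8, as were 4.17% of the tested genes. For the 28 samples of flow cell C5JW5ACXX, compound and flow cell cannot be told apart.

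MYOG lay below all DMSO columns in 33 of 40 treated samples and above them in 5, which were both Cpd50 samples, LSD-690 at 10 µM and both Trametinib samples. TCF3 lay below in 21 and above in 8, and TCF12 below in 18 and above in 12. TCF4 lay above all DMSO columns in 28 samples and below them in 10. Shares of all tested genes with such counts are not given here. The counts of MYOG and the E proteins are therefore a description. Under single compounds the TCF4 change was positive for 14 of 20, yet 0 of these passed the threshold.

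The sum of the myogenic factors was then set beside the sum of the E proteins as a description. In screen DMSO the myogenic sum was 2.31 to 2.56 times the E protein sum. The ratio was 0.737 and 0.740 under LAQ824, 0.761 under WT161 at 10 µM and 0.967 under UNC0638 at 10 µM, so in these 4 samples E protein transcripts outnumbered those of the myogenic factors. In the samples of LAQ824 and WT161 both sums were below DMSO, whereas under UNC0638 at 10 µM the E protein sum, 623 TPM, was the highest of the screen.

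Bromosporin at 10 µM kept a ratio of 1.68, with a myogenic sum of 279 TPM and an E protein sum of 167 TPM, against 1213 to 1227 and 480 to 529 TPM in DMSO. Trametinib had the highest ratios, 3.56 and 3.27. The median ratio was 1.82 in the 14 acetylation-axis samples and 1.92 in the 22 methylation-axis samples, both below the DMSO range.

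**Figure D3:**
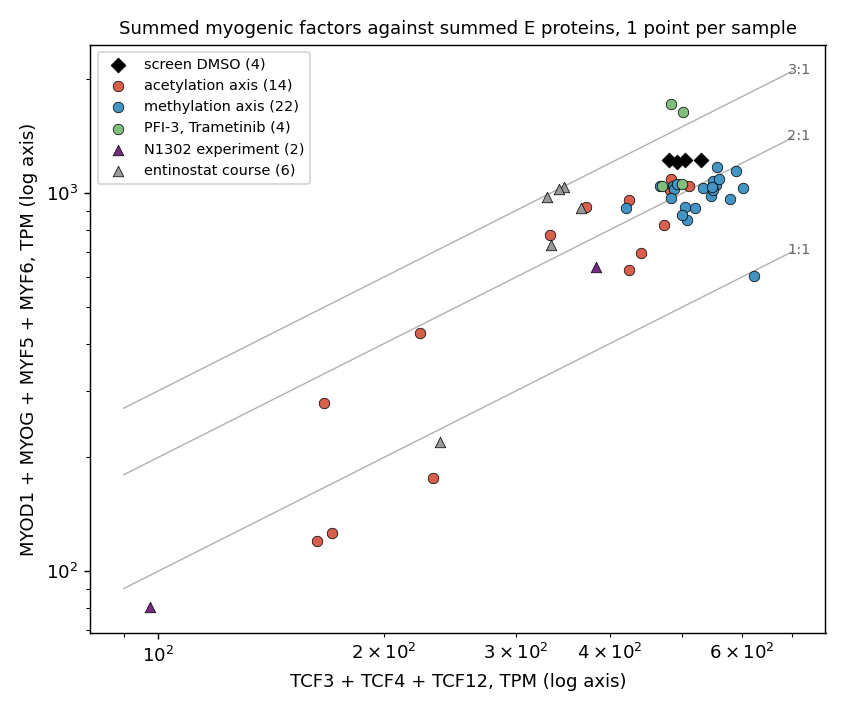
Summed TPM of MYOD1, MYOG, MYF5 and MYF6 against summed TPM of TCF3, TCF4 and TCF12 (log axes), 1 point for each of the 52 samples, with grey lines at ratios of 1, 2 and 3. The DMSO columns of the screen lie between the lines for 2 and 3, and the points of LAQ824 and of the treated N1302 sample lie below the line for 1.

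Across the 18 compounds with an axis, all 5 genes were lower on average under acetylation-axis than under methylation-axis compounds. The mean of MYOG differed from DMSO by -1.37 on the acetylation axis and by -0.13 on the methylation axis, that of MYOD1 by -1.16 and -0.52, and that of TCF12 by -0.75 and 0.09. For TCF3 the means were -0.47 and -0.03, and for TCF4 -0.23 and 0.22. MYOD1 was thus lower than DMSO on both axes, and TCF12 and TCF4 on the acetylation axis but not, on average, on the methylation axis. PFI-3, left out of both axes, differed from DMSO by -0.11 for MYOG and -0.32 for MYOD1. The axes were not compared with PFI-3 on the acetylation axis.

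The difference between axes was -1.24 ± 0.33 for MYOG (SE; limma adjusted p = 0.0568), -0.84 ± 0.18 for TCF12 (adjusted p = 0.0568), -0.65 ± 0.28 for MYOD1 (adjusted p = 0.129), -0.45 ± 0.15 for TCF4 (adjusted p = 0.0717) and -0.44 ± 0.14 for TCF3 (adjusted p = 0.0670). With limma 0 of 5 genes passed, as did 0% of all tested genes. At an unadjusted p below 0.05 all 5 did, beside 30.7% of all tested genes. When Merck60, OJI-1 or MC 1568 was left out, MYOG, TCF12, TCF3 and TCF4 passed, with MYOG at -1.46 (adjusted p = 0.0157), -1.42 (adjusted p = 0.0144) and -1.34 (adjusted p = 0.0252). With the high dose alone MYOG (-1.66) and TCF12 (-1.11) passed, both at an adjusted p of 0.0364. The shares of all tested genes that passed in these fits are not given here. In the main limma fit the smallest adjusted p over all tested genes was 0.0568. These passes are therefore not read as particular to the 5 genes. With flow cell as a covariate the adjusted p-values ran from 0.365 to 0.662, and the difference of MYOD1 was -0.29. Without LAQ824 it was -0.32 for MYOD1 (adjusted p = 0.308) and -0.89 for MYOG (adjusted p = 0.124), and with the low dose alone -0.38 (adjusted p = 0.430) and -0.82 (adjusted p = 0.235).

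Dose was examined within compounds, as the value at the high dose minus that at the low dose. On the acetylation axis the high dose gave less MYOG in 6 of 7 compounds, with a mean of -0.82 ± 0.21 (SE; limma adjusted p = 0.0784), and less MYOD1 in 6 of 7, with a mean of -0.52 ± 0.19 (adjusted p = 0.119). TCF12 was lower in 6 of 7 (-0.44 ± 0.15, adjusted p = 0.115), TCF3 in 6 of 7 (-0.28 ± 0.10, adjusted p = 0.105) and TCF4 in 3 of 7 (-0.26 ± 0.14, adjusted p = 0.262). The means came mostly from WT161, Bromosporin and SGC-CBP30, whose MYOG differed by -1.83, -1.90 and -1.60 between doses. LAQ824 differed by -0.05, already at its low level at the low dose.

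With limma 0 of 5 genes passed on the acetylation axis, as did 0% of all tested genes. At an unadjusted p below 0.05, 4 of 5 did, with 3773 genes in all. MYOG passed without LAQ824 (-0.95, adjusted p = 0.0318), without Merck60 (-0.97, adjusted p = 0.0397) and with doses matched to their DMSO concentration (-0.80, adjusted p = 0.0311). Without OJI-1, MYOG (-0.94, adjusted p = 0.0471), TCF12 (-0.58, adjusted p = 0.0486) and TCF3 (-0.38, adjusted p = 0.0465) passed. The shares of all tested genes that passed in these fits are likewise not given here. The mean of MYOG was -0.65 without WT161 (adjusted p = 0.271), -0.64 without Bromosporin (adjusted p = 0.249) and -0.69 without SGC-CBP30 (adjusted p = 0.158), and that of MYOD1 without WT161 was -0.31 (adjusted p = 0.375). With doses matched to DMSO that of TCF3 was -0.10 (adjusted p = 0.500).

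On the methylation axis the mean dose difference was 0.02 ± 0.17 for MYOG, 0.01 ± 0.15 for MYOD1, 0.11 ± 0.12 for TCF12, 0.15 ± 0.11 for TCF4 and -0.09 ± 0.08 for TCF3 (SE). Here 0 of 5 genes had an unadjusted p below 0.05, with 1503 genes in all, and 0% of all tested genes passed the adjusted threshold. The highest dose differences of TCF4 on this axis were those of UNC0638 (0.76), LSD-690 (0.56) and GSKJ4 (0.45), none of which has a test of its own. The test of the difference between the axes gave -0.84 ± 0.27 for MYOG (limma adjusted p = 0.216), with 0 of 5 genes and 0% of all genes past the threshold. At an unadjusted p below 0.05, 4 of 5 genes and 2553 genes in all differed.

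**Figure D4:**
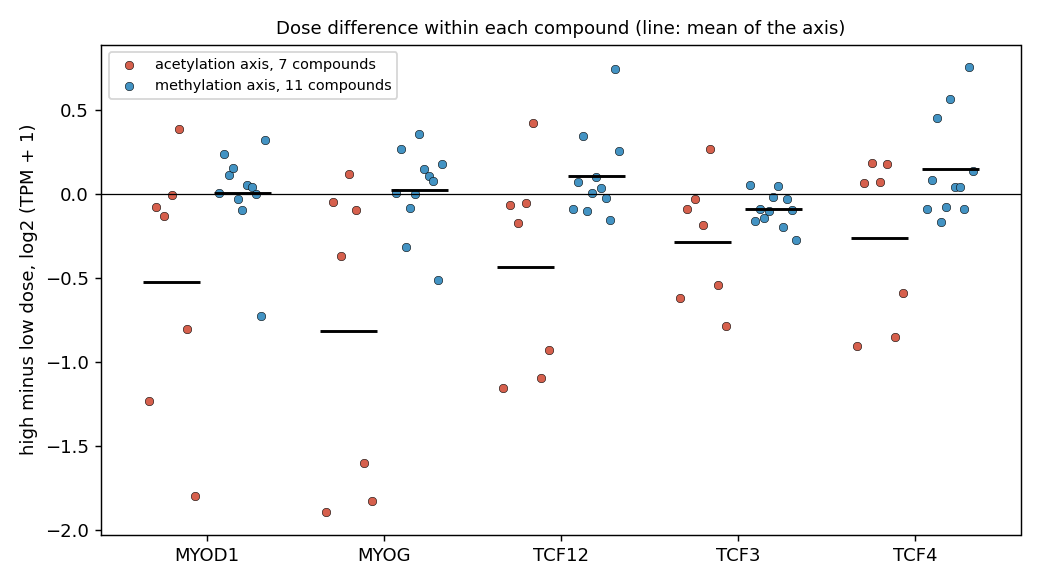
High-dose minus low-dose value in log2(TPM + 1) for each compound, by gene, with red points for the 7 acetylation-axis and blue points for the 11 methylation-axis compounds and a line at the mean. For MYOG 3 red points lie at or below -1.60, and the blue points spread around a mean of 0.02.

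The solvent itself was checked, since the controls span 2 DMSO concentrations. TCF3 was at 119 and 119 TPM in 0.2% and at 135 and 136 TPM in 0.1% DMSO, a difference of -0.18 ± 0.01 (SE; limma unadjusted p = 0.000819, adjusted p = 0.500). The other 4 genes differed by 0.06 or less in size. With limma 0 of 5 genes passed, as did 0% of all tested genes. At an unadjusted p below 0.05 there were 1548 genes. The fit of DMSO concentration took the 4 columns as separate samples, although the 2 of a concentration were otherwise counted as 1. Its SE and p-values thus measure the spread between such columns, not between independent DMSO samples.

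With N1302 the transcripts of both families were lower in its single pair of samples. MYOD1 was at 48.5 TPM with N1302 and 249 TPM with DMSO, and MYOG at 32.2 and 391 TPM, the lowest levels of both genes in the series. TCF12 was at 63.2 and 296 TPM and TCF4 at 6.76 and 41.5 TPM. TCF3, at 27.7 and 46.4 TPM, changed least.

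As ratios to DMSO these values were 0.0823 for MYOG (exact 95% counting interval 0.0737 to 0.0917), 0.163 for TCF4 (0.146 to 0.181), 0.195 for MYOD1 (0.179 to 0.212), 0.214 for TCF12 (0.204 to 0.224) and 0.597 for TCF3 (0.551 to 0.647). With 1 sample a group there is no test, and the intervals cover counting error only. At least 2-fold lower were 4 of 5 genes, beside 19.3% of all tested genes. With the mean of both 6 h DMSO samples titled RH4 as the reference, 5 of 5 were, since the log2 difference of TCF3 moved from -0.72 to -1.31. The share of all tested genes for that reference is not given here. With median-ratio scaling the log2 difference of TCF3 was -0.40.

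With entinostat MYOD1, MYOG, TCF3 and TCF12 were below the DMSO sample of the same time at 24 h, and TCF4 was near its DMSO level throughout. At 1 h the ratios to DMSO of the 5 genes ran from 1.01 to 1.09. At 6 h MYOD1 was at 255 TPM against 405 TPM in DMSO, and MYOG at 474 against 633 TPM. TCF12, at 211 and 209 TPM, and TCF4, at 32.6 and 32.2 TPM, had ratios of 1.01.

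At 24 h MYOG was at 107 TPM against 546 TPM, a ratio of 0.196 (exact 95% counting interval 0.187 to 0.206), and MYOD1 at 113 against 367 TPM, a ratio of 0.307 (0.293 to 0.321). TCF3 was at 60.2 against 112 TPM, with a ratio of 0.537 (0.515 to 0.560), and TCF12 at 142 against 220 TPM, with a ratio of 0.646 (0.628 to 0.664). TCF4 was at 35.5 against 34.01 TPM, with a ratio of 1.04 (0.996 to 1.09). TCF3 was at 90.5 against 106 TPM at 6 h, a ratio of 0.851, beside 0.629 for MYOD1 and 0.749 for MYOG at that time. There are no replicates to test an order in time. With the mean of both 6 h DMSO samples titled RH4 as the reference, the log2 difference at 6 h moved from -0.67 to -0.32 for MYOD1, from -0.42 to -0.07 for MYOG and, changing direction, from -0.23 to 0.36 for TCF3. It also changed direction for TCF12 (0.01 to -0.24) and TCF4 (0.02 to -0.16).

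Genes at least 2-fold lower numbered 0 of 5 at 1 h, beside 0.581% of all tested genes, 0 of 5 at 6 h, beside 0.947%, and 2 of 5 at 24 h, beside 6.06%. The ratio of the myogenic to the E protein sum was 2.99, 2.18 and 0.927 with entinostat at 1, 6 and 24 h, and 2.96, 2.98 and 2.498 with DMSO. Under N1302 it was 0.826 against 1.67.

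**Figure D5:**
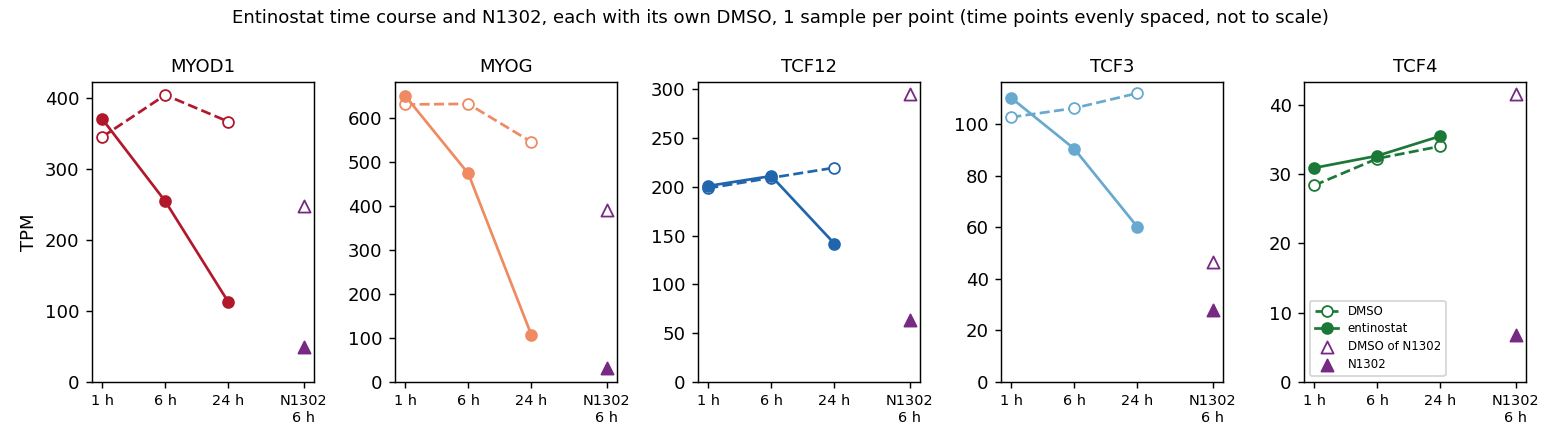
TPM of 5 genes with entinostat (filled circles) or DMSO (open circles) at 1, 6 and 24 h, and with N1302 (filled triangle) or its DMSO (open triangle) at 6 h, 1 sample per point. MYOG lies at 107 TPM after 24 h of entinostat against 546 TPM in DMSO, while the TCF4 values of entinostat and DMSO stay within 28.4 and 35.5 TPM.

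Antagonists of bHLH dimers, the partners' inhibitors and competitors, did not move as a block. Of 15 tested antagonists, 6 fell and 1 rose under LAQ824, 4 fell and 1 rose under WT161, and 4 fell and 1 rose under Bromosporin. Over all tested genes 24.6% fell and 28.4% rose under LAQ824, 14.3% and 17.7% under WT161 and 23.4% and 12.4% under Bromosporin, so the count of antagonists that fell under Bromosporin was near the background. The median changes were -0.43, -0.14 and -0.39, beside 0.06, 0.03 and -0.12 over all tested genes. ZEB2, a repressor that competes for E-boxes, changed by -3.59 ± 0.58 (SE; limma adjusted p = 1.53e-05) under LAQ824, -1.63 under WT161 and -2.49 under Bromosporin. MDFI, which binds myogenic factors and keeps them inactive, changed by -2.37, -1.32 and -1.59. ID2, an inhibitor of E proteins, was the antagonist that rose, by 2.02 ± 0.34 (adjusted p = 2.73e-05), 1.58 and 1.23.

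Cofactors and cooperating factors of the myogenic dimers were called lower in part. Of 13 tested, 7 fell and 0 rose under LAQ824, 4 fell and 0 rose under WT161, and 7 fell and 1 rose under Bromosporin, with medians of -0.52, -0.16 and -0.38, beside 0.06, 0.03 and -0.12 over all tested genes. The shares of all tested genes that fell were 24.6%, 14.3% and 23.4%, and 12.4% rose under Bromosporin. EP300, an acetyltransferase that works with MYOD1, fell by 1.98 under LAQ824, and its relative CREBBP changed by -1.94 under LAQ824, -1.34 under WT161 and -1.57 under Bromosporin. SMARCD3, a chromatin remodelling subunit that binds MYOD1, fell by 1.3 under WT161, and MEF2C, which binds DNA beside the myogenic dimers, fell by 2.01 under Bromosporin. The acetyltransferase gene KAT2B rose by 0.68 under Bromosporin.

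Muscle genes that the myogenic dimers are known to switch on were called in part. Of 26 tested, 16 fell and 2 rose under LAQ824, 10 fell and 0 rose under WT161, 15 fell and 0 rose under Bromosporin, and 15 fell and 0 rose under SGC-CBP30. Over all tested genes 24.6%, 14.3%, 23.4% and 2.68% fell, and 28.4%, 17.7%, 12.4% and 0.727% rose. The medians were -0.69, -0.41, -0.59 and -0.76, beside 0.06, 0.03, -0.12 and 0.03 over all tested genes. ACTC1, a muscle actin, fell by 2.89 under LAQ824. RAPSN, which anchors acetylcholine receptors at the synapse, changed by -2.22 under LAQ824, -1.51 under WT161 and -1.74 under Bromosporin, and the receptor subunit CHRNA1 fell by 1.31 under WT161. TMEM8C, the older symbol of the fusion protein myomaker, fell by 1.77 under Bromosporin. TNNC2 and MYH3, of the contractile filaments, rose by 0.84 and 0.50 under LAQ824 from levels of 6.78 and 5.09 TPM in DMSO.

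Under Trametinib 7 of the 26 muscle genes rose and 1 fell, with a median of 0.37 beside 0.01 over all tested genes, where 1.33% of all tested genes rose. With N1302, 5 of 26 were at least 2-fold lower and 0 higher, beside 19.3% lower and 11.6% higher over all tested genes, so the count of lower muscle genes was near the background. After 24 h of entinostat 9 were at least 2-fold lower and 4 higher, beside 6.06% lower and 16.4% higher over all tested genes.

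The 5 tested genes were positively correlated with each other over the 40 treated samples of the screen, to unlike degrees. Pearson's r of log2(TPM + 1) was 0.871 for MYOG and TCF12, 0.857 for MYOD1 and MYOG and 0.833 for MYOD1 and TCF12, and lowest for MYOD1 with TCF4, at 0.508. Without the LAQ824 samples these values were 0.765, 0.719, 0.667 and 0.377 (38 samples). The samples share libraries, flow cells and compounds, so r is a description.

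None of these pairs was the closest in the data. Among 11140 genes compared, those most like MYOD1 were UCK2 (r = 0.955) and HDAC7 (0.944), and those most like MYOG were SPATS2L (0.966) and TFAP2B (0.958). TCF12 was closest to CELF2 (0.971) and SATB1 (0.967), TCF3 to LRFN4 (0.935) and DENND1A (0.934), and TCF4 to CLCN4 (0.935) and PDE3A (0.927). Within the 28 samples of flow cell C5JW5ACXX these 10 values ran from 0.882 to 0.960, while the closest gene there was HAND2 for MYOG, SLITRK5 for TCF3 and MEF2C for TCF4.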

How the data were processed

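By the study's methods, RNA was poly-A selected, sequenced on a HiSeq2000 and aligned to hg19 with STAR. The methods name RSEM and the UCSC reference for expression, while the sample labels name STAR and edgeR and not RSEM. Which of these made the values of the 52 samples was not settled. The deposited values are TPM, which the authors scaled for the length of genes and the size of libraries, 1 value per gene and sample, with no pooling of replicates. Values were analysed as log2(TPM + 1), which understates changes of low genes, over 16359 genes with at least 1 TPM in 2 or more samples.

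Samples were grouped from the labels. Compounds were compared with DMSO by limma 3.58.1 in R 4.3.3 (lmFit, eBayes with a trend), over all genes, with the DMSO columns averaged per concentration, so that the spread includes the difference between doses. Axes and doses were compared by limma over 18 compounds. Single samples were called at 2-fold. Adjusted p-values are Benjamini-Hochberg, over all tested genes. Whole reads were recovered from the steps between TPM values for 23645 of the 23645 genes with a TPM above 0 (tolerance 0.01 of a read), as the smallest numbers that fit. The scripts were tested on simulated data. A further promoter sequence is not reported here.

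The genes named are the 7 themselves, the 2 most like each tested gene (mean TPM of at least 5), and, from each list, up to 2 rises and 2 falls under the 3 compounds with most calls. The genes, the lists and the tests were chosen with earlier results of these data known. Alternatives covered the pseudocount, scaling, filters, DMSO columns, single doses, flow cell, voom weights and left-out samples or compounds. Python 3.11.15 did the rest.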

Additional observations from a re-analysis of the deposited data

How the results depend on the processing

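Of the 13 calls of a gene under a compound, 0 changed direction in 178 comparisons with alternatives, and 164 kept the call. When a compound was fitted with DMSO alone, 9 of the 13 calls were lost, those other than under LAQ824, and against the other compounds of the flow cell 3 of 9. The number of MYOD1 and MYOG pairs called lower was 7, and 30 or 31 with the high or the low dose alone, where the spread comes from the DMSO columns; for E proteins it was 6, and 13 with either dose alone or 3 at a change of at least 2-fold. Pairs called higher numbered 0. For MYOD1 and MYOG they were 2 and 1 with the high and low dose alone, 1 with own samples, 1 with voom weights and 1 within the flow cell. For E proteins they were 14 and 8 with the high and low dose alone and 2 with own samples. Within the flow cell of 14 compounds, 5 lower calls of MYOD1 and MYOG became 3. Leaving out each DMSO column gave 7 myogenic calls and 6 to 7 E protein calls. Between axes 0 genes passed, 2 with a mean TPM of at least 5, 2 with the high dose alone, and 0 to 4 when each compound was left out. For dose on the acetylation axis 0 passed, 1 with matched DMSO, and 0 to 3 with a compound left out. Shares of all tested genes are not given for these alternatives of compounds, axes and dose. The counts under alternatives are therefore not read as particular to the 5 genes. The median ratio of sums on the acetylation axis was 0.745 of that in DMSO, 0.813 as MYOD1 over TCF12 and 0.530 without the most abundant gene of each sum. On the methylation axis the median ratio of sums was 1.92, against 2.45 in DMSO. As MYOD1 over TCF12 the median was 1.27 on the methylation axis, 1.51 on the acetylation axis and 1.86 in DMSO. Where not given here, the cause of a change was not tested. The DMSO replicate numbers, with a replicate block, gave 0 calls of 5 for DMSO concentration, as without it, and changed no call; same-numbered columns deviated together with a correlation of 0.0719 over genes. MYF5 and MYF6 were limited by depth.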
